A study of Mus musculus with 18 samples.

Results

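The genes examined here were the mouse signal regulatory proteins Sirpa, Sirpb1a, Sirpb1b and Sirpb1c and their ligand gene Cd47, 5 genes of the 34896 in the deposited expression table. They were selected by symbol, and they were chosen with their values in these data known, so that their levels and peaks below are a description without a test. The study sorted 3 stages of neutrophil development from the bone marrow of adult C57BL/6 mice aged 6 to 12 weeks, namely granulocyte-monocyte progenitors (GMP), committed neutrophil precursors (preNeu) and mature neutrophils (matNeu). RNA-seq of wild type (WT) cells had 3 libraries for each stage. ChIP-seq, which recovers the DNA held by a protein through an antibody, was made for CHD4 in WT and in Gfi1-/- GMPs and for histone H3 dimethylated at lysine 4 (H3K4me2) in WT GMP, preNeu and matNeu cells, with 1 library each, so that no ChIP-seq difference has a replicate check. All groups were WT except the Gfi1-/- GMPs, which lack the repressor GFI1, and no value used here checks that deletion. For RNA-seq, marrow from tibiae, femora and humeri was pooled before sorting. Nothing in the labels says that RNA libraries came from separate mice, so that p-values measure only the spread between these libraries. 

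Cell types followed the sample titles, since a second label field gives another cell type for 13 of the 18 samples, among them every RNA library. The markers went with the titles. The 6 progenitor markers, among them Mpo and Elane, summed to between 45267 and 47154 TPM in the GMP libraries and to at most 32.7 TPM in matNeu. The 6 preNeu markers, among them Ngp and Ltf, lay between 145613 and 171432 TPM in preNeu and at 113 TPM or less in GMP. Cxcr2, Mmp8 and the other 4 matNeu markers lay between 29415 and 33039 TPM in matNeu and at 1198 TPM or less in the other cells. Kit, Cd34 and Cxcr2 among these markers encode proteins that were used to sort the cells. TPM is the share of a gene among all transcripts of a library, corrected for length, and its total is the same in every library, so that read depth is unknown.

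SIRPα is a membrane receptor of myeloid cells. When it binds CD47 on a neighbouring cell, its cytoplasmic tail is phosphorylated and recruits the phosphatases SHP-1 and SHP-2, which restrain phagocytosis and, in neutrophils, adhesion and activation. The SIRPβ1 proteins have a similar extracellular part but a short tail, and signal through the adaptor DAP12, which carries an activating motif. CD47 is made by nearly all cells and is widely known as a "don't eat me" signal.

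Sirpa (ENSMUSG00000037902) lies on chromosome 2 at chr2:129592835-129632228 of GRCm38, on the plus strand. Sirpb1a (ENSMUSG00000095788, chr3:15371653-15426520), Sirpb1b (ENSMUSG00000095028, chr3:15495751-15575065) and Sirpb1c (ENSMUSG00000074677, chr3:15795145-15848528) follow each other on the minus strand of chromosome 3. Cd47 (ENSMUSG00000055447) is annotated at chr16:49800533-49915010 on the plus strand, a span that begins 55.1 kb before the start of its principal transcript at position 49855645. The 3 Sirpb1 copies are alike enough to share reads. Of the 31-base words in their annotated transcripts, 45.5% of those of Sirpb1a, 27.8% of Sirpb1b and 43.1% of Sirpb1c occurred in transcripts of no other gene, and Sirpb1c held 69.6% of the words of Sirpb1b. For Sirpa the corresponding number was 5101 of 5103 words, and for Cd47 it was 98.4%. The split of reads among the Sirpb1 copies is therefore uncertain, and their sum is given beside each copy.

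Sirpa RNA, for the inhibitory receptor, was present at every stage. Its level was 84.9, 94.0 and 83.1 TPM in the GMP libraries, 213, 220 and 253 TPM in preNeu and 523, 525 and 626 TPM in matNeu. The 3 stages did not overlap, and each stage lay above the one before it. The means were 87.3 ± 5.85, 229 ± 21.0 and 558 ± 58.8 TPM (SD, n = 3), which made preNeu 2.62-fold higher than GMP and matNeu 2.44-fold higher than preNeu. On the scale of log2(TPM + 1), the difference between matNeu and GMP was 2.66 with a standard error of 0.12.

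The Sirpb1 copies, for the activating receptors, were near 0 until the last stage. Sirpb1b was at 0.111, 0.218 and 0.168 TPM in GMP, at 0.407, 0.461 and 0.783 TPM in preNeu and at 942, 902 and 976 TPM in matNeu. Sirpb1a was listed at 0 in all 3 GMP libraries, at 0, 0.595 and 1.92 TPM in preNeu and at 478, 389 and 404 TPM in matNeu. Sirpb1c was listed at 0 in all 3 GMP libraries, at 0.167, 0.861 and 1.92 TPM in preNeu and at 404, 382 and 430 TPM in matNeu. All 3 copies thus stood far apart in matNeu from every library of the earlier stages, while the preNeu values of Sirpb1a overlapped those of GMP. In the third preNeu library the values of Sirpb1a and Sirpb1c differed by only 4.67e-10 TPM, which is no difference at the precision of the others.

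Summed over the copies, Sirpb1 RNA was at 0.166 ± 0.0535 TPM in GMP, 2.37 ± 2.06 TPM in preNeu and 1769 ± 83.3 TPM in matNeu (SD, n = 3). The sum differed by 9.23 between matNeu and preNeu on the log2(TPM + 1) scale. Sirpb1b held between 51.6% and 53.9% of the sum in the matNeu libraries. Per transcript length, the 3 activating copies together were thus above Sirpa in every matNeu library and below it in every GMP and preNeu library, and in matNeu the level of Sirpb1b alone was also above that of Sirpa.

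Cd47 RNA, for the ligand, took another course. It was at 698, 695 and 672 TPM in GMP, at 904, 989 and 904 TPM in preNeu and at 366, 398 and 409 TPM in matNeu. Its TPM was highest in preNeu and lowest in matNeu, and no stages overlapped. The means were 689 ± 14.1, 932 ± 48.8 and 391 ± 22.5 TPM (SD, n = 3), and on the log2(TPM + 1) scale preNeu minus GMP was 0.44 and matNeu minus preNeu was -1.25, each with a standard error of 0.093.

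The lower Cd47 level of matNeu against GMP turned with the scaling. As TPM the difference was -0.82, but the median over all 13061 genes tested was itself -0.92 in that comparison. After TPM was rescaled by median-of-ratios size factors, Cd47 was at 483 ± 8.13 in GMP and 507 ± 37.0 in matNeu, the libraries overlapped, and the difference was 0.067 in the opposite direction. The difference between matNeu and preNeu kept its sign at -0.88, and that between preNeu and GMP was 0.95. The Sirp genes kept their direction under this scaling in every comparison. In such bulk samples fewer expressing cells and less RNA per cell cannot be told apart.

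**Figure D1:**
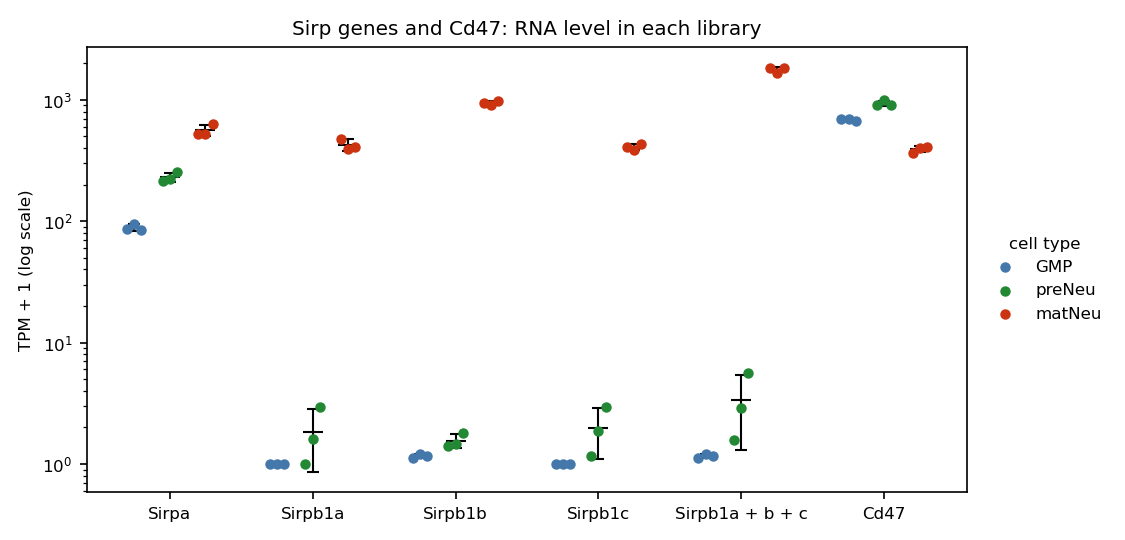
RNA level of the 4 Sirp genes, of the 3 Sirpb1 copies summed and of Cd47 as TPM + 1 on a log axis, for each of the 9 libraries (points), with the mean and SD of each stage (black bars, n = 3). Sirpa is higher at each stage than at the one before, and Cd47 is highest in preNeu. Before matNeu each Sirpb1 copy is at 1.92 TPM or less and their sum at 4.62 TPM or less. In matNeu their sum is between 1673 and 1824 TPM.

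Counted over the 5 genes, the libraries did not overlap for 4 genes that were higher in preNeu than in GMP and for none that was lower, with Sirpb1a overlapping. Over all genes tested, 17.1% were higher and 48.4% lower without overlap in this comparison. From preNeu to matNeu, 4 genes were higher and 1 was lower (all genes 24.7% higher and 41.9% lower), and from GMP to matNeu the counts were again 4 and 1 (all genes 23.8% and 54.8%). As the genes were chosen with these values known, nothing follows from these counts. All 5 passed the filter of at least 1 TPM in at least 3 libraries, the Sirpb1 copies only through matNeu.

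Genes with the most similar course over the 9 libraries were looked up by Pearson's r of log2(TPM + 1) among 9507 genes with a mean of at least 10 TPM in 1 stage. The libraries fall into 3 stages, so that r mostly reflects the stage means. For Sirpa these were Mxd1 (r = 0.998), Rab5b (0.998) and Ptpn6 (0.997), the last being the gene of SHP-1. For Sirpb1b they were Slc15a3, Steap4 and Cxcr1 (each 0.999), of which Cxcr1 encodes a chemokine receptor of neutrophils and was listed at 0 in GMP and preNeu and at a mean of 40.2 TPM in matNeu. Sirpb1a and Sirpb1c led each other's lists (r = 0.9996), followed by Sfxn5 and Ctsd for Sirpb1a and by Ankrd33b and Sfxn5 for Sirpb1c. Transcripts of Sirpb1c held 50.8% of the 31-base words of Sirpb1a, and the part of shared reads in their r was not tested. For Cd47 they were Fam3c (0.997), Hvcn1 (0.995) and Btnl9 (0.994), and Hvcn1, a proton channel gene, had means of 109, 430 and 11.9 TPM in GMP, preNeu and matNeu.

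Other genes next to the Sirp loci were also read, and the first 2 of them were named after their values were seen. Gm5150, the next gene beyond Sirpb1c on the same strand (chr3:15946870-16006437), was at a mean of 0.493 TPM in GMP, 1.03 TPM in preNeu and 558 TPM in matNeu. Gm9733, at the other end of the cluster (chr3:15296551-15332302), had means of 4.78, 36.2 and 243 TPM. Nearly all of the 31-base words of both transcripts (1086 of 1090 and 588 of 588) occurred in no other gene, unlike those of the Sirpb1 copies. F830045P16Rik, which RefSeq also lists as Sirpb3 and which neighbours Sirpa, had stage means of at most 0.337 TPM.

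CHD4 is the ATPase of the NuRD complex, which remodels nucleosomes and removes histone acetylation, and GFI1 is a repressor of myeloid genes that binds NuRD. CHD4 peaks were sought within each gene and up to 10 kb on either side. All 5 genes had at least 1 CHD4 peak in WT GMPs, as did 32.4% of all 21938 protein-coding genes, and a share of this kind depends on gene length and on the choice of the genes. Sirpa had 8 peaks, Sirpb1a 6, Sirpb1b 5, Sirpb1c 2 and Cd47 24, against a median of 0 and a 95th percentile of 7 over all protein-coding genes. The count for Cd47 includes 15 peaks more than 10 kb before its principal start, towards the point where the annotated gene begins.

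At Sirpb1, CHD4 sat at the same places in each copy. Sirpb1a had a summit 23 bp upstream of its start with a fold enrichment of 16.4 and another 1593 bp upstream with 47.2. Sirpb1b had summits 36 bp and 1620 bp upstream with fold enrichments of 44.5 and 46.5. Sirpb1c had 1 summit 11 bp downstream with 16.1 and another 1598 bp upstream with 11.5. By fold enrichment among all 35790 peaks of the list, the peaks of Sirpb1b were at percentiles 98.7 and 98.9, that at the start of Sirpb1a was at 83.8 and the upstream peak of Sirpb1c at 71.1. Gm5150 held the same arrangement, with summits 27 bp downstream (14.3) and 1611 bp upstream (19.2). Gm9733 did not hold this pair of summits. Its strongest summit lay 554 bp downstream of its start (14.6), in a wide peak that also covered the start. Others lay 8213 bp upstream (5.90) and 44.9 kb downstream (5.27).

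The upstream sites are shown as 121 bases around each CHD4 summit, read from GRCm38.p6 on the minus strand, because 4 genes carry the same element at about the same distance. Capitals mark matches to TTNNGCAA, a C/EBP core, searched on both strands with GAGGAAG for PU.1 and AAATCA for GFI1. The windows are chr3:15428053-15428173, chr3:15576625-15576745, chr3:15850066-15850186 and chr3:16007988-16008108, in this order.
Sirpb1a: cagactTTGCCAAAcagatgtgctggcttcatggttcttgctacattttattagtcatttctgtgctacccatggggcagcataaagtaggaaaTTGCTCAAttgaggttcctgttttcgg
Sirpb1b: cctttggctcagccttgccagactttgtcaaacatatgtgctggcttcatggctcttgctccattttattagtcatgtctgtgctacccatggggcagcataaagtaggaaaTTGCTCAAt
Sirpb1c: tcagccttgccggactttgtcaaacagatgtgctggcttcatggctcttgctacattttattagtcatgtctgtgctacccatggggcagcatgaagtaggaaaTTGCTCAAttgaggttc
Gm5150: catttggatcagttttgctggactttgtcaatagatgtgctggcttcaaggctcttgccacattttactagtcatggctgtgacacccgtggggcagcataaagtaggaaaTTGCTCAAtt

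The longest run found in all 4 windows was aagtaggaaattgctcaat, 19 bases, which holds the match to the C/EBP core. The first base of that match lay 1559 bp before the start of Sirpb1a, 1568 bp before Sirpb1b, 1554 bp before Sirpb1c and 1560 bp before Gm5150. The 3 Sirpb1 windows were between 95.1% and 96.5% identical where they overlapped, and the window of Gm5150 was between 86.0% and 88.6% identical to them. Among all 35728 CHD4 summit windows of this length on the assembled chromosomes, 11.5% held a match to this core, 19.6% one to GAGGAAG and 6.7% one to AAATCA. None of the 4 windows held GAGGAAG or AAATCA. As the 4 windows are copies of a sequence, their matches are not separate observations.

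At the starts, the window of Sirpb1b held 1 match to AAATCA, which is in capitals below. The windows of Sirpb1a and Sirpb1c held no match to any of the 3 cores. That of Sirpb1a covers the place of the match in Sirpb1b, whereas that of Sirpb1c, which is centred on its own summit, begins beyond it. The windows are chr3:15426483-15426603, chr3:15575041-15575161 and chr3:15848457-15848577.
Sirpb1a: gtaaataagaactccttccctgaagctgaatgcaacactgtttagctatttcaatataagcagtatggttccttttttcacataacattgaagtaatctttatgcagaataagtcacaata
Sirpb1b: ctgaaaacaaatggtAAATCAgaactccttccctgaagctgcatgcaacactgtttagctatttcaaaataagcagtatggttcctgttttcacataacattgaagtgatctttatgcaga
Sirpb1c: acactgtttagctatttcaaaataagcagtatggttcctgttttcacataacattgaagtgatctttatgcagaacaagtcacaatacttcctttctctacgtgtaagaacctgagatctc
Where they overlapped, the start windows of Sirpb1b and Sirpb1c were identical over 74 bases, and that of Sirpb1a was 95.4% identical to each.

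Reads from such copies are hard to place. Of the 31-base words in the peaks at the starts of Sirpb1a, Sirpb1b and Sirpb1c, 60.3%, 44.4% and 41.0% occurred once in the genome, and of those in the upstream peaks 74.0%, 69.0% and 80.2%. At the strongest peaks of Sirpa and Cd47 all words occurred once. The part of this in the fold enrichments of the copies was not tested.

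At Sirpa the strongest CHD4 peak lay outside the gene, 6532 bp upstream of its start, with a fold enrichment of 27.9. Its window chr2:129586247-129586367 held 1 match to GAGGAAG, in capitals in the plus strand sequence.
Sirpa: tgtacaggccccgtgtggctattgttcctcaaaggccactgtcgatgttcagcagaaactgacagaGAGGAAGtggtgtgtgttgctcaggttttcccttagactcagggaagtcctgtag
The promoter of Sirpa, taken as 2 kb before and 500 bp after the start, held 2 weaker peaks of 4.37 and 7.49, and 4 more lay in introns, between 4.96 and 12.7. At Cd47 the strongest peak, with 42.4, lay 15.5 kb upstream of the principal start in an intron of the longer transcript, and the promoter peak reached 23.7.

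In Gfi1-/- GMPs, 11 of the 45 CHD4 sites of the 5 genes overlapped a CHD4 peak. Over all WT sites, 18.5% did. The sites split by strength. All 8 sites with a WT fold enrichment of 20 or more were kept (all sites of this strength 90.5%), and 3 of the 37 weaker sites were kept (all weaker sites 9.53%). The 3 weaker sites that were kept all belonged to Sirpb1 copies, namely the start of Sirpb1a and both sites of Sirpb1c. The other 7 of the 10 weaker sites at the Sirpb1 copies were not kept, and neither was any of the 27 weaker sites of Sirpa and Cd47. The sites that were kept at the Sirpb1 copies were thus the 6 paired ones. Those not kept include promoter peaks 701 bp and 1209 bp upstream of Sirpb1a, with WT fold enrichments of 5.90 and 4.78. Another, 501 bp upstream of Sirpb1b, had 4.84. All of these lay between the 2 promoter peaks of Sirpa, 4.37 and 7.49, which were not kept either. Stronger sites were also not kept, with 9.27 and 8.27 at Sirpb1a. The strongest lay 9577 bp upstream of Sirpb1b with 18.6, above the 3 weaker sites that were kept (16.4, 16.1 and 11.5). Keeping weaker sites was not particular to the copies. Gm5150 kept both of its paired sites (5.27 against 14.3 and 5.57 against 19.2 in WT). Gm9733, without the pair, kept its site of 14.6 (5.24 in the Gfi1-/- list). The other sites of these neighbours, at 6.2, 5.90 and 5.27, were not kept. The WT and Gfi1-/- lists hold 35790 and 7316 peaks, and a library with fewer reads or lower enrichment lists fewer peaks. The study itself counted far fewer CHD4 peaks in WT GMPs, so shares of these lists are not shares of its sites. It reported that sites with CHD4 alone largely kept CHD4 in Gfi1-/- GMPs, whereas most sites shared with GFI1 lost it.

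At the sites that were kept, the fold enrichment was lower in the Gfi1-/- list. It was 14.8 against 47.2 upstream of Sirpb1a, 12.5 against 44.5 at the start of Sirpb1b and 14.2 against 46.5 upstream of it. For Sirpb1c the values were 7.02 against 16.1 at the start and 6.27 against 11.5 upstream. The values were 6.66 against 27.9 upstream of Sirpa and 5.27 against 23.7 at the Cd47 promoter. As a percentage of WT, the 11 sites ranged from 19.9% to 54.7% with a median of 30.6%, beside a median of 32.8% over all 6632 kept sites. Without replicates or a common scale, a difference in occupation and a difference in enrichment between the libraries cannot be told apart.

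The Sirpb1 promoters were thus occupied by CHD4 in cells where their RNA was near 0. Among the 10512 protein-coding genes below 1 TPM in GMPs, 4.02% had a CHD4 summit at the promoter in WT and 0.970% in Gfi1-/- GMPs. All 3 copies had such a summit in both genotypes. The copies were chosen with these peaks known and share their sequence, so nothing follows from their count.

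**Figure D2:**
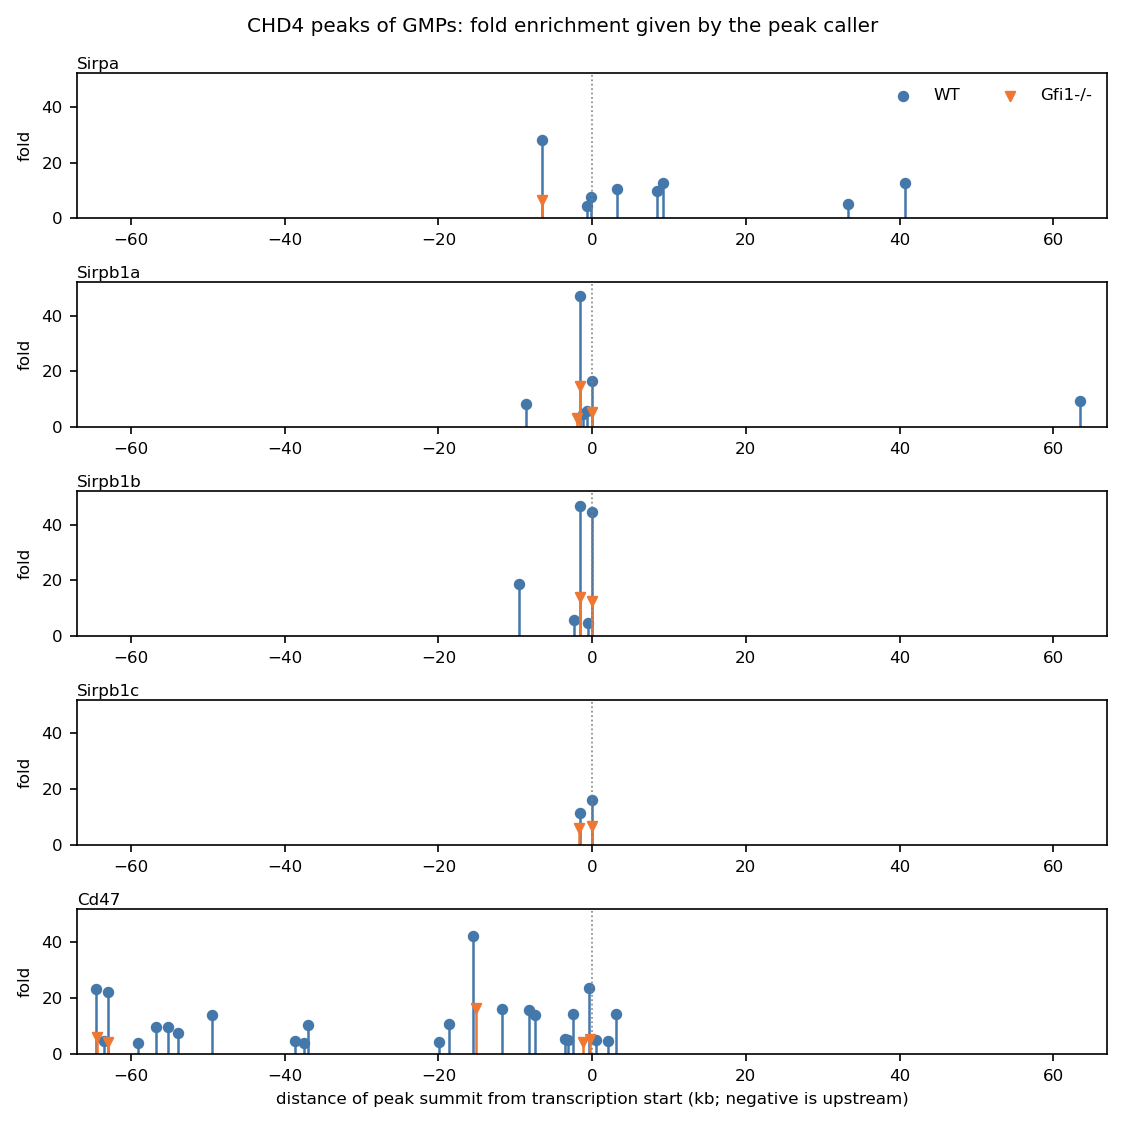
CHD4 peaks within each gene or 10 kb of it, by the distance of the summit from the transcription start (x axis, kb) and the fold enrichment given by the peak caller (y axis), in WT GMPs (blue) and Gfi1-/- GMPs (orange), 1 library each. The pair of sites at each Sirpb1 copy has an orange mark below each blue one and the 7 other Sirpb1 sites have none, nor does any of the 27 sites under a fold enrichment of 20 at Sirpa and Cd47.

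H3K4me2 marks promoters and enhancers that are active or poised, and its extent around the starts differed between stages. At Sirpa the peak that covered the start was 4725 bp wide with a fold enrichment of 3.16 in GMP, 8023 bp with 13.5 in preNeu and 14060 bp with 7.53 in matNeu. By fold enrichment it was at percentiles 62.2, 97.1 and 80.0 of the lists. The lists hold 37643, 49578 and 44094 peaks with median fold enrichments of 2.89, 4.55 and 3.78, so that neither the fold nor the percentile is a common scale across stages. Over the whole locus, H3K4me2 peaks covered 5.43 kb in GMP, 14.41 kb in preNeu and 17.34 kb in matNeu. The site 6532 bp upstream that CHD4 held in GMPs was outside any H3K4me2 peak in GMP and inside one in preNeu and matNeu.

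At the Sirpb1 copies the mark was narrower, and the copies differed. Sirpb1a had a peak over its start at every stage, 1741, 2534 and 2476 bp wide, with fold enrichments of 3.34, 3.72 and 3.66 and at percentiles 69.7, 38.7 and 47.9 of the lists. Sirpb1b had one of 1154 bp with 2.78 in GMP, of 3642 bp with 3.29 in preNeu and of 7188 bp with 6.56 in matNeu, at percentiles 42.9, 30.0 and 74.0. For Sirpb1a the fold was thus lowest and the percentile highest in GMP. Sirpb1c had no H3K4me2 peak in GMP and a peak of 158 bp just inside the gene in preNeu, whereas in matNeu 5355 bp around its start were covered with a fold enrichment of 4.08. For the copies b and c, the widest peaks were thus in matNeu, but for copy a the width hardly differed between preNeu and matNeu while its RNA was at 0.838 ± 0.983 and 424 ± 47.6 TPM (SD, n = 3). Words found once were counted for the CHD4 peaks alone, and the part of shared sequence in these widths was not tested.

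At Cd47 the peak over the principal start was 7531 bp wide in GMP, 14990 bp in preNeu and 14651 bp in matNeu, at percentiles 72.2, 94.2 and 81.8. Over the locus the mark covered 17.32 kb, 54.98 kb and 43.18 kb. The strongest CHD4 site of Cd47, 15.5 kb upstream, lay inside an H3K4me2 peak at each stage.

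Counted over the 45 CHD4 sites of GMPs, 20 overlapped an H3K4me2 peak in GMP, 38 in preNeu and 33 in matNeu, and the shares over all WT CHD4 sites were 37.8%, 59.5% and 52.5%. At Cd47 the counts were 11, 23 and 17 of 24 sites, and at Sirpa 3, 7 and 7 of 8. The lists themselves cover 49.84, 97.93 and 80.4 Mb, in the same order as the counts. None of the 17 GMP peaks reached 5 in −log10 q-value, against 8 of 19 preNeu and 11 of 24 matNeu peaks. Over the whole lists 18.8%, 58.0% and 50.3% of peaks did, again fewest in GMP.

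**Figure D3:**
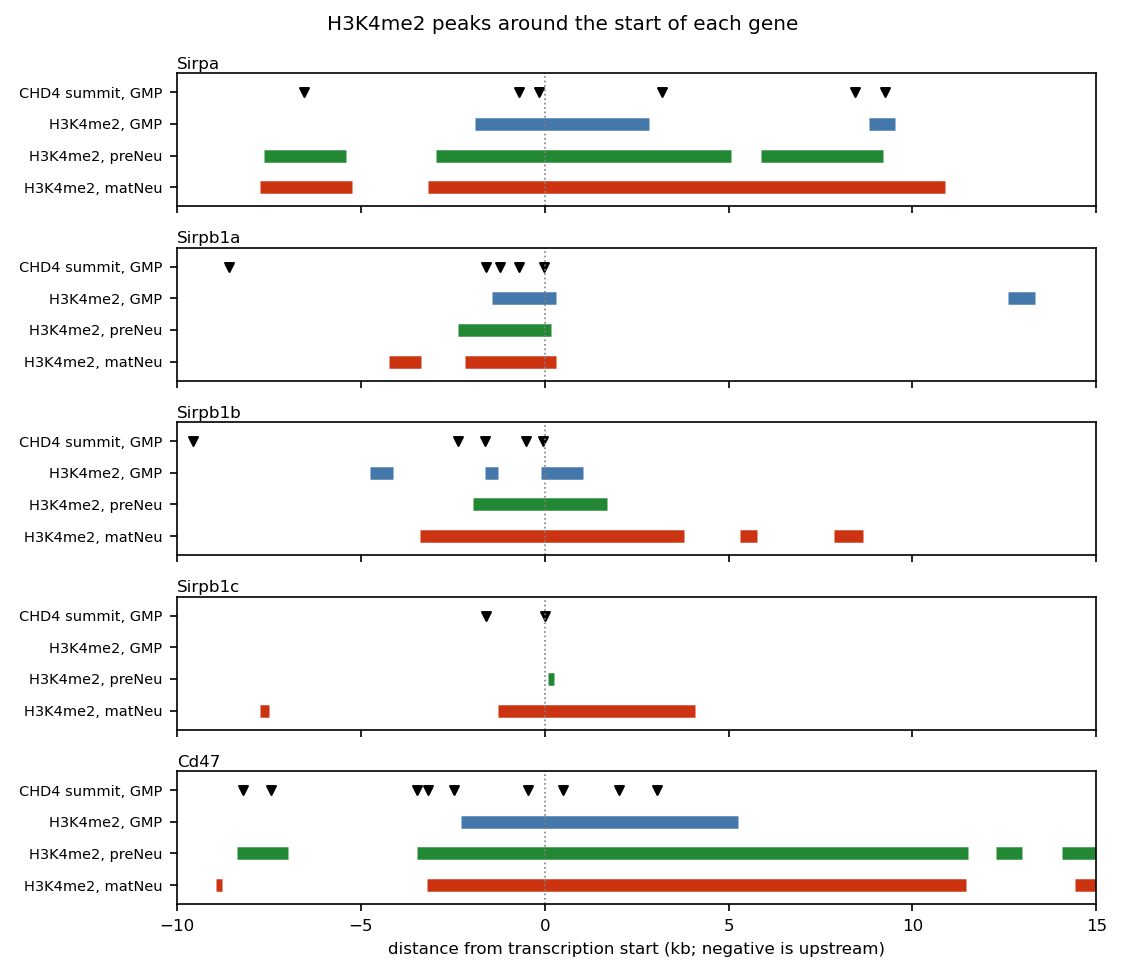
Extent of H3K4me2 peaks from 10 kb upstream to 15 kb downstream of each start (x axis, kb), in GMP (blue), preNeu (green) and matNeu (red), 1 library each, with CHD4 summits of WT GMPs as black triangles. Sirpb1c has no bar in GMP and a bar of 5355 bp in matNeu, and the bars of Sirpa and Cd47 that cross the start are wider in preNeu and matNeu than in GMP.

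Open chromatin in neutrophils was given by ATAC-seq, in which a transposase cuts accessible DNA. The lists deposited for preNeu and matNeu were identical, so they were used as 1 list that cannot be tied to a stage. It held 4 peaks at Sirpa, among them the start and the site 6.5 kb upstream, and 2 at Cd47, the promoter and the intronic site 15.5 kb upstream of it. At Sirpb1a it held 1 peak, on the upstream CHD4 site, with a fold enrichment of 3.85, and at Sirpb1b and Sirpb1c none. Gm5150 had an ATAC-seq peak at each of its paired sites. In its CHD4 peaks there, 95.6% (start) and 90.1% (upstream) of 31-base words occurred once in the genome. The corresponding shares were 60.3% and 74.0% at Sirpb1a, 44.4% and 69.0% at Sirpb1b, and 41.0% and 80.2% at Sirpb1c. The part of shared sequence in the missing ATAC-seq peaks was not tested.

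The partners of these receptors were taken as 33 genes in 4 lists, grouped by their known roles. The lists were chosen with earlier results of these data known, so that their counts and p-values are not an independent test. They were tested with limma on log2(TPM + 1), and p-values were adjusted over all 13061 genes (Benjamini-Hochberg), and all 33 were measured. From GMP to matNeu 20 rose and 10 fell at an adjusted p under 0.05, and 3 did not pass. Over all genes 22.8% rose and 54.1% fell in that comparison. From GMP to preNeu 17 rose and 6 fell (all genes 14.7% and 44.3%), and from preNeu to matNeu 16 rose and 10 fell (22.9% and 39.8%). The median change over the 33 genes from GMP to matNeu was 0.92, beside -0.92 over all genes. After rescaling by size factors, 22 of the 33 rose and 9 fell from GMP to matNeu, and over all genes 4498 rose and 5453 fell, against 2976 and 7065 as TPM. From preNeu to matNeu 21 of the 33 rose and 7 fell after rescaling, and over all genes 3944 and 4414.

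Of the 8 adaptors and phosphatases that act behind SIRPα, 7 rose and 1 fell from GMP to matNeu. Ptpn6, the gene of SHP-1, was at 387, 405 and 378 TPM in GMP, at 681, 773 and 791 TPM in preNeu and at 1295, 1188 and 1408 TPM in matNeu. It rose at each step without overlap, by 1.73 in all (limma adjusted p = 6.3e-08). Ptpn11, the gene of SHP-2, was at 31.6, 27.2 and 31.2 TPM in GMP and at 26.2, 30.2 and 31.3 TPM in preNeu. In matNeu it was at 10.9, 8.84 and 14.2 TPM, and it fell by 1.35 from GMP to matNeu (limma adjusted p = 8.1e-05). The phosphatase genes thus moved in opposite directions from GMP to matNeu, and both kept them after rescaling, at 2.61 for Ptpn6 and -0.51 for Ptpn11. From GMP to preNeu, Ptpn11 changed by -0.037 as TPM and did not pass, and by 0.46 after rescaling (limma adjusted p = 0.049).

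The others of that list that changed most were adaptors and a kinase. Fyb, an adaptor that joins SKAP2 to SLP-76, went from 15.2, 19.9 and 21.9 TPM in GMP to 530, 480 and 476 TPM in matNeu, a rise of 4.65 (limma adjusted p = 9.5e-10). Ptk2b, the kinase PYK2, rose by 2.39 from a mean of 29.0 to 158 TPM, and Skap2 by 1.76 (2.64 after rescaling) from 193 to 653 TPM.

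Of the 7 kinases and adaptors of activating and inhibitory motifs, 6 rose and 1 fell from GMP to matNeu. Tyrobp, the gene of DAP12 through which SIRPβ1 signals, was at 189, 262 and 255 TPM in GMP, at 663, 550 and 538 TPM in preNeu and at 4541, 2959 and 2474 TPM in matNeu. It rose by 1.31 to preNeu and by a further 2.47 to matNeu (limma adjusted p = 0.00036 and 2.2e-06). Tyrobp RNA was thus already present at stages where the Sirpb1 copies were near 0.

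The Src family kinase gene Fgr, which acts in myeloid receptor signalling, also rose. Fgr was at 0.930, 0.846 and 0.635 TPM in GMP, at 216, 254 and 258 TPM in preNeu and at 779, 829 and 801 TPM in matNeu, a rise of 8.80 in all (limma adjusted p = 1.4e-11). Hcst, the gene of the adaptor DAP10, rose by 2.99 from a mean of 13.3 to 125 TPM. The gene that fell, Vav1, a guanine nucleotide exchange factor, differed by -0.33 between matNeu and GMP as TPM and by 0.55 after rescaling, so that it has no direction that holds under both.

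Of the 8 partners and modifiers of CD47, 3 rose, 4 fell and 1 did not pass from GMP to matNeu. Thbs1, the gene of the CD47 ligand thrombospondin-1, was at 1.02, 0 and 2.53 TPM in GMP, at 11.9, 13.3 and 26.4 TPM in preNeu and at 219, 169 and 336 TPM in matNeu, a rise of 6.92 (limma adjusted p = 1.3e-07). Qpctl, whose enzyme forms the pyroglutamate of CD47 that SIRPα binds, was at 26.5, 21.2 and 18.2 TPM in GMP and at 8.59, 6.34 and 8.27 TPM in matNeu, and fell by 1.39 (limma adjusted p = 0.00015). After rescaling the Qpctl change was -0.57 (limma adjusted p = 0.028). The integrin genes Itga2b and Itgb1 fell by 3.14 and 2.73, whereas Itgb3 and Itgav rose by 1.87 and 0.57 (limma adjusted p = 5.1e-05 and 0.046).

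Of the 10 genes of other clearance signals, 4 rose, 4 fell and 2 did not pass from GMP to matNeu. The inhibitory receptor genes Lilrb4a and Pirb, whose reads near-identical relatives may share, rose by 8.63 and 8.30 to means of 2835 and 1384 TPM. Calr, the gene of calreticulin, a chaperone that on the cell surface acts as a signal for uptake, went from 1991, 2254 and 1959 TPM in GMP to 25.5, 23.7 and 34.8 TPM in matNeu, and fell by 6.17 (limma adjusted p = 3.7e-10). The markers of monocytes and macrophages, cells that also carry Sirpa, summed to between 4537 and 5399 TPM in GMP, 1732 and 2253 TPM in preNeu and 1159 and 1511 TPM in matNeu, with 10, 9 and 7 of the 10 at a mean of at least 1 TPM and none at 0 throughout a stage. The sum was lowest in the stage where Sirpa was highest, but 2 of its genes were highest there too, Csf1r at 309, 253 and 350 TPM in matNeu against 188 to 232 TPM in GMP, and Adgre1 at 75.7 TPM or more against 14.9 TPM or less. The lymphoid list summed to between 460 and 613 TPM in GMP, 239 and 259 TPM in preNeu and 36.6 and 74.5 TPM in matNeu, with 2, 5 and 5 of 7 genes at a mean of at least 1 TPM and 4, 1 and 0 at 0 throughout a stage. Most of the sum in GMP was Nkg7, a gene of cytotoxic cells, at 457 to 610 TPM there and at 3.05 TPM or less in matNeu, whereas the B cell gene Cd79a was at 0.603 TPM or less in GMP and at 16.2 to 33.1 TPM in matNeu. The part of these cells in the levels was not tested.

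**Figure D4:**
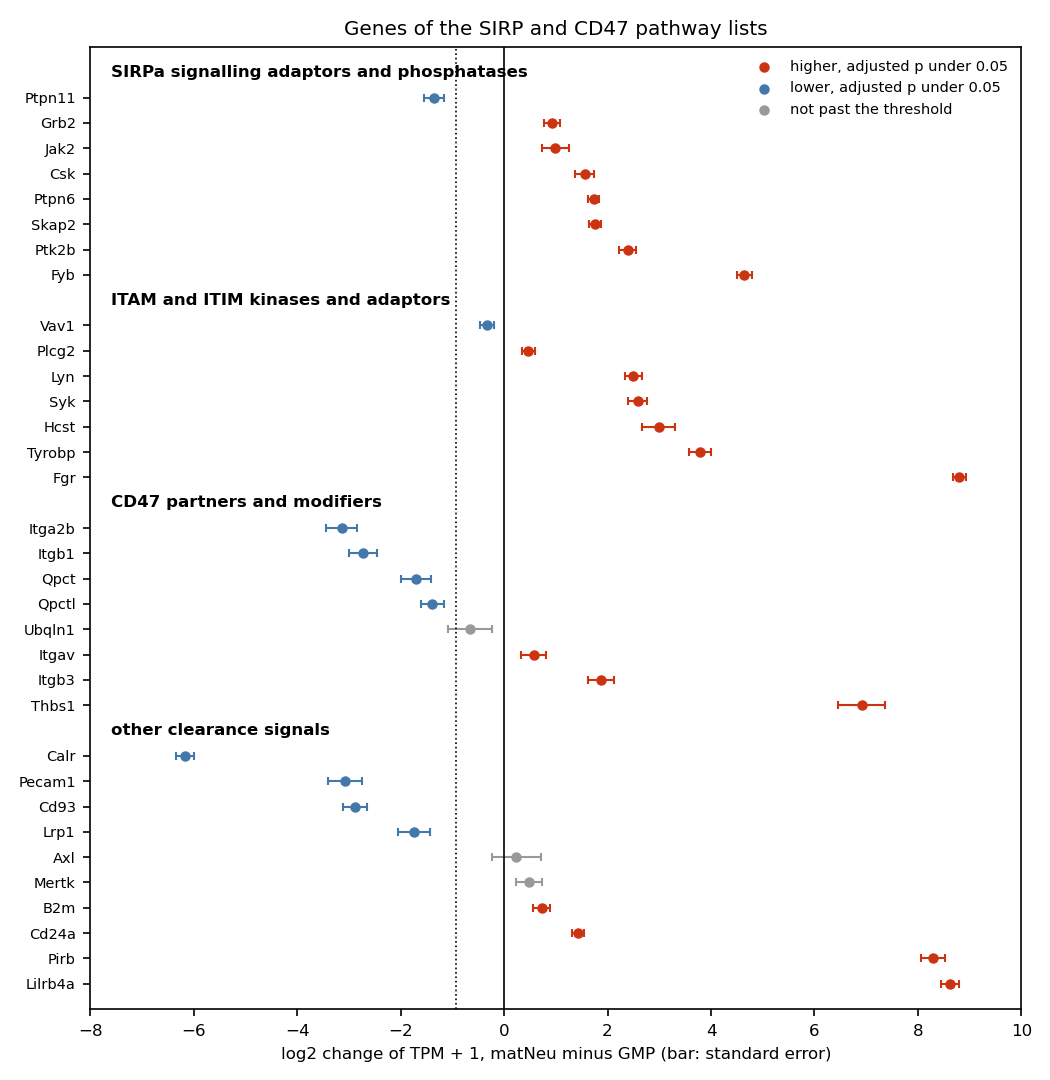
Change of the 33 partner genes between GMP and matNeu on the scale of log2(TPM + 1) (x axis, points with standard error), by list, for genes that rose (red), fell (blue) or did not pass the limma test (grey). The dotted line is the median over all genes, -0.92, and 20 points are red, with Fgr at 8.80 and Calr at -6.17 near the ends.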

How the data were processed

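RNA levels were deposited by the authors in TPM, which the submitters' processing notes tie to kallisto 0.44.0, whereas the study's methods describe counting with HTSeq and a test with DESeq. TPM keeps no depth, so no count test was run. The authors deposited peak lists in mm10 coordinates with the fold enrichment, a linear ratio, and the −log10 q-value of each peak, and the notes name BWA 0.7.17 and MACS2 2.1.0. Peak depth is unknown, and peaks were called per library. The GFI1 and H3K4me3 lists were not used, because they hold positions outside these chromosomes.

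Values were taken as log2(TPM + 1) and fitted by limma 3.58.1 (R 4.3.3) over genes that reached 1 TPM in 3 or more libraries. All 9 libraries entered a fit that had only the stage as a term, with a trend in the variance. This scale understates the change of low genes. An exact permutation test of 3 libraries against 3 could not give less than p = 0.1. A CHD4 site was kept when a Gfi1-/- peak overlapped it by at least 1 bp. Genes and starts were those of GENCODE M21. Python 3.11.15, Biopython 1.88 and matplotlib 3.10.9 were used.

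The genes and lists were chosen with earlier results of these data known. Named genes were the 5 genes, 5 partners chosen by role (Ptpn6, Ptpn11, Tyrobp, Thbs1 and Qpctl), the 3 largest changes of each list in matNeu against GMP, the 3 genes most similar to each of the 5 and SIRP-like neighbours. A gene of the partner lists is not reported here. Vav1, Itgb3, Itgav, Gm5150 and Gm9733 were named after their values were seen. The alternatives were another pseudocount, 2 other filters, rescaling by size factors, the compared stages alone, the replicate number as a block, no trend, leaving out each library, the copies summed, windows of 2 kb and 50 kb, a stricter q-value (5 or more as −log10), and other definitions of a kept site.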

Additional observations from a re-analysis of the deposited data

How the results depend on the processing

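All counts of partner genes past the threshold stayed within 1.5 times their value under each alternative, leaving out each library included. Among the log2 changes, 1 reversed, that of Cd47 in matNeu against GMP, which was 0.067 after rescaling by size factors. Another 24 moved by at least the SD between libraries, and 8 other counts left the range of 1.5 times. With a pseudocount of 0.1, preNeu minus GMP went from 0.74 to 2.38 for Sirpb1a and from 0.89 to 3.01 for Sirpb1c. The labels do not say whether the replicate number pairs samples. Same-numbered libraries had correlations of their deviations between -0.039 and 0.12, and differently numbered ones between -0.13 and 0.071. So few libraries cannot decide whether the numbers pair samples. With the number as a block, 19 partner genes rose and 10 fell from GMP to matNeu. The counts were 17 and 6 from GMP to preNeu, and 16 and 10 from preNeu to matNeu. After rescaling, 23 rose and 5 fell from GMP to preNeu, 21 and 7 from preNeu to matNeu, and 22 and 9 from GMP to matNeu. Over all genes, rescaling gave 3027 that rose and 3679 that fell from GMP to preNeu (1925 and 5781 as TPM), and 3944 and 4414 from preNeu to matNeu (2995 and 5202). With a window of 50 kb the genes held 77 CHD4 sites, of which 19 were kept, and 27, 37 and 42 H3K4me2 peaks in GMP, preNeu and matNeu. Limited to peaks that reached 5 in −log10 q-value, H3K4me2 peaks numbered 0, 8 and 11, a subset by construction. Depth is unknown for every list and library, so that levels near 0 cannot be told from 0.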
